A study of Mus musculus with 20 samples.

Results

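Messenger RNA of 10 genes that write, copy, protect or remove DNA methylation was followed through mouse preimplantation development. The genes are Dnmt1, Dnmt3a, Dnmt3b, Dnmt3l, Uhrf1, Tet1, Tet2, Tet3, Dppa3 and Tdg, taken by symbol, and all 10 were among the 24411 genes listed for every library. They were read in 16 libraries of pooled embryos, at the late 2-cell stage, the 4-cell stage and the morula stage.

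DNA methylation in mammals is the addition of a methyl group to cytosine, mostly where a guanine follows (CpG). Dnmt3a and Dnmt3b set new methyl groups with the help of Dnmt3l, which has no enzyme activity of its own. Dnmt1 copies the pattern to the new strand after replication and is brought to the site by Uhrf1. The enzymes Tet1, Tet2 and Tet3 oxidise methylcytosine, and Tdg cuts oxidised bases out of the DNA for base excision repair. Dppa3, also called Stella or PGC7, protects the maternal genome from oxidation in the zygote and keeps Uhrf1 out of the nucleus in oocytes. After fertilisation the embryo loses most of its methylation, Tet3 acting in the zygote, and methylation is set anew around implantation. Many of these messages are stored in the egg, so an early level holds maternal RNA as well as new transcripts.

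All embryos came from superovulated mouse oocytes fertilised in vitro and were cultured in KSOM medium, and each library was made from 10 embryos with a SMART-Seq v4 PLUS kit. In the knockdown experiment, siRNA that targets no gene (siControl) or siRNA against Pcgf5 (siPcgf5) was electroporated 3 hours after insemination, and 2 libraries of each were made at the late 2-cell stage (36 hours) and 2 of each at the morula stage (72 hours). In the knockout experiment, 4-cell embryos (48 hours) were WT (2 libraries), Hetero KO (3) or Homo KO (3) for MT2C_Mm, a retroviral long terminal repeat, at Pcgf5, and were not electroporated. Pcgf5 is a subunit of a variant Polycomb complex that ubiquitinates histone H2A. Mouse strain, how the deletion was made and how many lines carry it are not given in the sources used here. Nor do the labels say whether libraries of a group came from separate fertilisations, so each p-value reflects only how far these libraries differ, which may be technical.

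Library depth lay between 14310634 and 55620137 summed expected counts. Pcgf5, the targeted gene, held 316 and 811 CPM (expected counts scaled to a common library size) in siControl and 53.9 and 89.4 CPM in siPcgf5 at the late 2-cell stage, and 246 and 166 against 39.5 and 32.4 CPM at the morula. At the 4-cell stage it held 328 and 294 CPM in WT, 336, 252 and 284 CPM in Hetero KO and 191, 211 and 162 CPM in Homo KO. No siPcgf5 library reached its control, and no Homo KO library reached WT. On the log2 scale of edgeR it stood at -2.96 in siPcgf5 against siControl at the late 2-cell stage (adjusted p = 0.0789), at -2.53 at the morula (adjusted p = 0.242) and at -0.72 in Homo KO against WT (adjusted p = 0.236). Sums of marker genes followed the labelled stages. For 8 late 2-cell genes such as the Zscan4 genes they were 1720 to 3360 CPM at the late 2-cell stage, 36.6 to 459 at the 4-cell stage and 8.80 to 45.4 at the morula. For 9 genes of the morula and early lineages they were 40.8 to 57.0, 25.6 to 78.9 and 503 to 640. Not every single gene followed. Sox2 of the morula list held 0.275 to 3.86 CPM at the late 2-cell stage and 0.183 to 1.25 at the morula. Tdpoz4 of the late 2-cell list held 10.3 to 28.7 CPM at that stage and 8.16 to 29.8 at the 4-cell stage. The 8 oocyte markers went from 9502 to 15221 CPM at the late 2-cell stage to between 49.9 and 84.6 at the morula. A single library stood apart, siControl late 2-cell replicate 1, where the macrophage gene Lyz2 reached 318 CPM against 1.37 to 3.35 in the other late 2-cell libraries. Without it, the change from late 2-cell to morula in siControl was -1.37 for Dnmt1, -0.67 for Dnmt3a, 1.94 for Dnmt3b, 1.48 for Dnmt3l, 1.43 for Tet1, 4.90 for Tet2 and 0.99 for Dppa3 on the log2 scale, all but Dnmt3a called. From siControl late 2-cell to WT 4-cell it was -1.04 for Dnmt3l, 3.60 for Tet1 and 1.01 for Dppa3, all called, and the knockdown value of Dnmt3b at the late 2-cell stage was -0.21. Those of Uhrf1, Tet3 and Tdg are given with each gene.

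RefSeq places windows upstream of annotated transcript starts for 9 of the 10 genes, 16 windows in all on build GRCm38.p6, with none for Dppa3. Sequences are shown for the TET genes, whose order of levels changed with the stage, and for Dnmt3l, whose transcript length changed between stages. Each is printed 5′ to 3′ on the strand of the gene and ends at the base before the start, with every CpG in capitals. The annotated TET genes reach further upstream than the starts of these windows, to base 62887469 (Tet1), 133545136 (Tet2) and 83457208 (Tet3). Which start was in use was not tested. The TET windows hold 250 bases and lie at chr10:62887325-62887574 (minus strand, Tet1), chr3:133544391-133544640 (minus strand, Tet2) and chr6:83441679-83441928 (minus strand, Tet3).
Tet1: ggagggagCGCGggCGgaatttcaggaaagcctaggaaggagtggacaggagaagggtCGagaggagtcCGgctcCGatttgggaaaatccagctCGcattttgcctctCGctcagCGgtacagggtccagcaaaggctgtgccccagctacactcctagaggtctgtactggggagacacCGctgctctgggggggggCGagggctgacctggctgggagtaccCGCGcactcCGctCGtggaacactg
Tet2: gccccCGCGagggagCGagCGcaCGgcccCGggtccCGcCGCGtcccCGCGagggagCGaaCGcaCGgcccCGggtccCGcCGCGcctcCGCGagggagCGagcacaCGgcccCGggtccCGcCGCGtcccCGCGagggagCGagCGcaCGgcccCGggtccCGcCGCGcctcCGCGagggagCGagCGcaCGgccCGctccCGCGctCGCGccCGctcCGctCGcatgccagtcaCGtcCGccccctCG
Tet3: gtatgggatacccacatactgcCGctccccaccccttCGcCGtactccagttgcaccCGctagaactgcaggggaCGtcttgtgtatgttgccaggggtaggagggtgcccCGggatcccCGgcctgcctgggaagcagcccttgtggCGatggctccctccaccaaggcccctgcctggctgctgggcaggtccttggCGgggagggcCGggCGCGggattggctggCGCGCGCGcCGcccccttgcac

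Tet2 stands out by its CpG content. Its window holds 51 CpG, against 15 for Tet1 and 17 for Tet3, and only 22 of 32851 RefSeq windows of that length (0.0670%) hold as many. The median over all windows is 6 CpG. Among the other members, also over 250 bases, the most CpG-rich windows were those of Dnmt3a with 40 and Uhrf1 with 30. The poorest belonged to Dnmt1 with 2 and Dnmt3l with 5, 4 and 3. Of these Dnmt3l CpG, 3, 3 and 2 lie in the 120 bases printed below for each start. Dnmt1 has other starts with 7 and 26 CpG. The letters TATAAA, read on either strand, are in 0 of the 16 member windows and in 12.4% of all windows, and the letters CCAAT are in 6 of the 16 and in 33.8% of all. Such matches describe letters only, and 2 of the Dnmt3a windows overlap.

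Dnmt3l has 3 annotated starts, and the last 120 bases before each are shown because the mix of its transcripts differed between stages. They lie on the plus strand at chr10:78042167-78042286, chr10:78049722-78049841 and chr10:78055215-78055334.
Dnmt3l start 1: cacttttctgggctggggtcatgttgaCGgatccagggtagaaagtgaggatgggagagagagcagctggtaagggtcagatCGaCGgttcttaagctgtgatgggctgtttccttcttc
Dnmt3l start 2: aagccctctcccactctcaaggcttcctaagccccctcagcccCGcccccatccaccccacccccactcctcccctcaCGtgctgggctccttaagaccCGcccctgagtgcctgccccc
Dnmt3l start 3: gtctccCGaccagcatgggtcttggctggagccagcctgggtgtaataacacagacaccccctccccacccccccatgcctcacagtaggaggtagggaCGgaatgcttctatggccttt

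Levels of a gene across libraries are given below in CPM, the expected counts after scaling of the libraries by TMM. Levels of different genes are compared only in TPM, the deposited abundance per length. Both are relative to the other RNA counted in a library, so a rise or fall below is not an amount per embryo. The change between stages was tested with edgeR on expected counts, and a gene was called at an adjusted p under 0.05.

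From late 2-cell to morula in the siControl embryos, 5 of the 10 genes rose and 3 fell. Dnmt3b, Dnmt3l, Tet1, Tet2 and Dppa3 rose, and Dnmt1, Uhrf1 and Tet3 fell. Of all 16980 genes tested, 24.9% were called higher and 28.1% lower, so change between these stages was common. The median log2 change was 1.07 over the 10 members and -0.34 over all genes in siControl, and 0.15 and -0.38 in siPcgf5. That of all genes in siControl was -0.51 with the size factors of DESeq2 and -0.50 on the log2(TPM + 1) scale, where limma called 2452 genes higher and 7388 lower, against 4220 and 4766 by edgeR. The siPcgf5 embryos gave the same 5 rises, with falls of Uhrf1 and Tet3, beside a background of 24.5% higher and 28.2% lower (4162 and 4787 genes, or 2558 and 6846 by limma on log2(TPM + 1)). These calls depend on the scale: in TPM the rises of Dnmt3l, Tet1 and Dppa3 were not called in either series, as shown gene by gene below. Other RNA also fell over this interval. Cumulus and granulosa markers (8 genes) summed to 21.1 to 38.7 CPM at the late 2-cell stage and 0 to 0.137 at the morula, sperm markers (6 genes) to 10.3 to 14.3 and 0.748 to 1.58, and blood markers (7 genes) to 252 to 586 and 28.0 to 46.4. Most of the cumulus sum was Tnfaip6 (17.3 to 37.2 CPM) and most of the blood sum was Hba-a2 in all but the library named above, while Amh, Hbb-bs and Hbb-bt were at 0 at every stage. Their part in the changes was not tested. In these pools, fewer cells with a message and less of it per cell cannot be told apart.

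**Figure D1:**
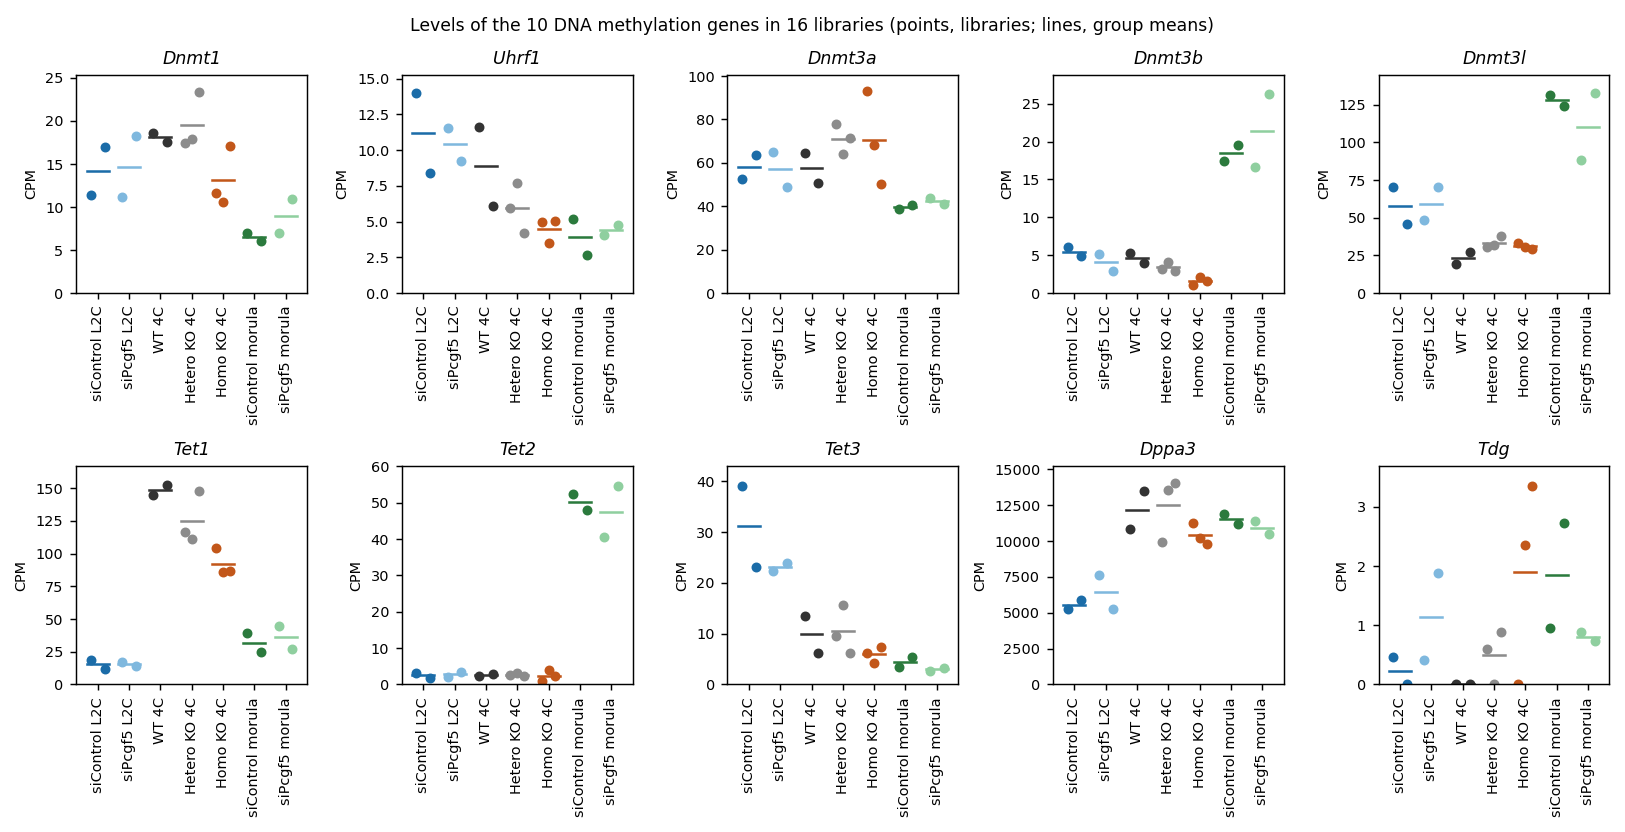
Level in CPM (linear axes from 0) of each of the 10 genes in 16 libraries, grouped by treatment or genotype and stage (L2C, late 2-cell; 4C, 4-cell). Points are libraries and lines are group means. Tet2 is at 4.04 CPM or less in every library before the morula and between 40.5 and 54.6 in the 4 morula libraries, and Tet1 is at 85.7 CPM or more at the 4-cell stage and at 44.5 or less elsewhere.

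Dnmt1, the maintenance methyltransferase, fell toward the morula in siControl. Its levels in siControl were 11.4 and 17.0 CPM at the late 2-cell stage and 6.97 and 6.06 CPM at the morula. The fitted change was a 2.17-fold fall (log2 -1.12 ± 0.410 SE, adjusted p = 0.0410). In siPcgf5 the late 2-cell libraries held 11.1 and 18.2 CPM and the morula libraries 7.03 and 11.0. These groups did not overlap either, but the highest morula library lay just under the lowest late 2-cell library and the fall was not called (log2 -0.72 ± 0.407 SE, adjusted p = 0.154). In TPM, Dnmt1 fell in both series (log2(TPM + 1) change -1.40 in siControl and -1.10 in siPcgf5, limma adjusted p = 0.00390 and 0.0127). The 8 libraries at the 4-cell stage held 10.6 to 23.3 CPM, with a median of 17.5. The call in siControl was lost when late 2-cell replicate 2 (-0.84) or either morula library (-1.21 and -1.01) was left out.

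Uhrf1, which brings Dnmt1 to newly copied DNA, fell beside it. The siControl libraries held 14.0 and 8.37 CPM at the late 2-cell stage and 5.21 and 2.68 CPM at the morula, a 2.82-fold fall (log2 -1.49 ± 0.463 SE, adjusted p = 0.0195). In siPcgf5 the values were 11.5 and 9.24 CPM and then 4.07 and 4.77 CPM, a 2.38-fold fall (log2 -1.25 ± 0.460 SE, adjusted p = 0.0414). The groups were apart in both series. Without late 2-cell replicate 1, the library with Lyz2, the siControl fall was -1.07 and no longer called (adjusted p = 0.116), and it was lost as well without morula replicate 2 (-1.08). In siPcgf5 the call was lost whichever of the 4 libraries was left out. At the 4-cell stage Uhrf1 spanned 3.48 to 11.6 CPM, a range that overlaps both other stages.

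Among the writers, Dnmt3a had no called change on the count scale. It stood at 52.6 and 63.6 CPM in siControl at the late 2-cell stage and at 38.9 and 40.6 CPM at the morula (log2 -0.54 ± 0.238 SE, adjusted p = 0.0783). The siPcgf5 libraries held 65.1 and 48.8, then 43.97 and 41.1 CPM (log2 -0.44 ± 0.238 SE, adjusted p = 0.140). All 4 morula libraries lay below all 4 late 2-cell libraries. The siControl fall was called with the size factors of DESeq2 (-0.71, adjusted p = 0.0283), and in TPM the falls were called in both series (log2(TPM + 1) change -1.31 and -1.11, adjusted p = 0.00127 and 0.00321). The highest single value, 93.2 CPM, was in Homo KO replicate 1 at the 4-cell stage.

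Dnmt3b, the other active enzyme, rose. Its siControl libraries went from 6.11 and 4.84 CPM at the late 2-cell stage to 17.4 and 19.6 CPM at the morula, a 3.39-fold rise (log2 1.76 ± 0.400 SE, adjusted p = 0.00376). In siPcgf5 it went from 5.23 and 2.93 to 16.6 and 26.2 CPM, a 5.20-fold rise (log2 2.38 ± 0.410 SE, adjusted p = 0.000660). No late 2-cell or 4-cell library reached the lowest morula library. The 4-cell values of 1.13 to 5.36 CPM were as low as the late 2-cell ones. In TPM the rise was called in siPcgf5 (1.06, adjusted p = 0.0140) and not in siControl (0.53, adjusted p = 0.143).

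Dnmt3l fell and then rose. In siControl it stood at 70.2 and 46.1 CPM at the late 2-cell stage and at 132 and 124 CPM at the morula (log2 1.15 ± 0.295 SE, adjusted p = 0.00762). The WT 4-cell libraries lay below both, at 19.06 and 27.2 CPM. Against siControl late 2-cell that was a 2.51-fold fall (log2 -1.33 ± 0.286 SE, adjusted p = 0.00221), and from WT 4-cell to siControl morula it was a 5.52-fold rise (log2 2.46 ± 0.296 SE, adjusted p = 1.82e-05). Both of these changes were called in TPM as well, at -1.33 and 1.72. The rise from late 2-cell to morula was not called in TPM in siControl (0.39, adjusted p = 0.276) or in siPcgf5 (0.17, adjusted p = 0.642). In siPcgf5 it was called on the count scale (48.4 and 70.3 to 88.3 and 132 CPM, log2 0.88 ± 0.294 SE), but not without late 2-cell replicate 1 (0.62) or morula replicate 2 (0.55).

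Dnmt3l also changed in length. The abundance-weighted length that RSEM gives for a gene moves with the mix of its annotated transcripts, of which 6 were counted for Dnmt3l. In the late 2-cell libraries that length was 1323 to 1456 bases, at the 4-cell stage 1172 to 1230 bases and at the morula 1218 to 1231 bases. All 4 late 2-cell libraries were longer than all 12 later ones, in siControl and siPcgf5 alike. Lengths of Dnmt1 and Dnmt3a were steadier, between 5299 and 5369.6 bases and between 8913 and 9017 in all 16 libraries. Dnmt3b differed by stage as well, over a smaller part of its length. It lay at 4050 to 4146 bases at the late 2-cell stage, 3960.0 to 4149 at the 4-cell stage and 4167 to 4203 at the morula. Its 4 morula libraries were longer than all 12 earlier ones. The files hold no value per transcript, so the lengths were not tied to the starts printed above.

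**Figure D2:**
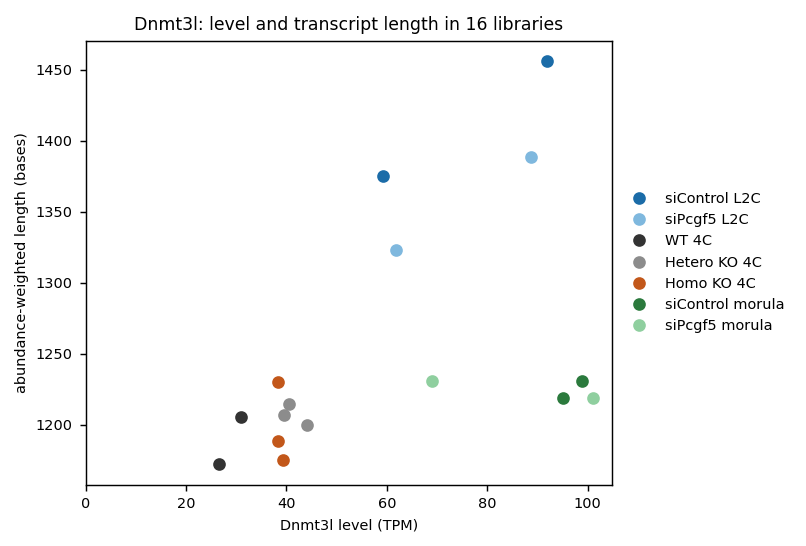
Abundance-weighted length of Dnmt3l in bases (vertical axis, not from 0) against its level in TPM in 16 libraries (L2C, late 2-cell; 4C, 4-cell). The 4 late 2-cell points lie at 1323 bases or more, and the 4-cell and morula points lie at 1231 bases or less although their levels run from 26.6 to 101 TPM.

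By summed TPM, Dnmt3l was the main member of its family in every library. Of the sum of Dnmt3a, Dnmt3b and Dnmt3l it made up 82.5% to 90.4% at the late 2-cell stage, 69.5% to 83.0% at the 4-cell stage and 90.3% to 93.5% at the morula. Dnmt3a took 8.51% to 15.0%, 15.8% to 25.5% and 3.26% to 5.30%. Dnmt3b never took more than 4.99%. The sum was lowest at the 4-cell stage, at 38.3 to 54.1 TPM, against 71.7 to 104 at the late 2-cell stage and 76.4 to 109.9 at the morula.

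The 3 TET genes followed each other. Tet3 was the main TET message at the late 2-cell stage, Tet1 at the 4-cell stage and Tet2 at the morula, in each of the libraries of that stage. Tet3 held 59.1% to 68.2% of the summed TET TPM at the late 2-cell stage, 4.95% to 14.9% at the 4-cell stage and 3.12% to 6.70% at the morula. Tet1 held 25.03% to 34.6%, then 81.5% to 92.6%, then 23.1% to 40.2%. Tet2 held 5.92% to 10.7%, then 1.26% to 6.44%, then 56.6% to 72.7%. The sum itself was 4.73 to 8.83 TPM, 8.54 to 15.96 TPM and 5.97 to 7 TPM, so it was highest at the 4-cell stage in all but the lowest of the 4-cell libraries. The 4-cell embryos come from another experiment than the other stages and were not electroporated, so stage and experiment cannot be told apart wherever a 4-cell value is set beside another stage.

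**Figure D3:**
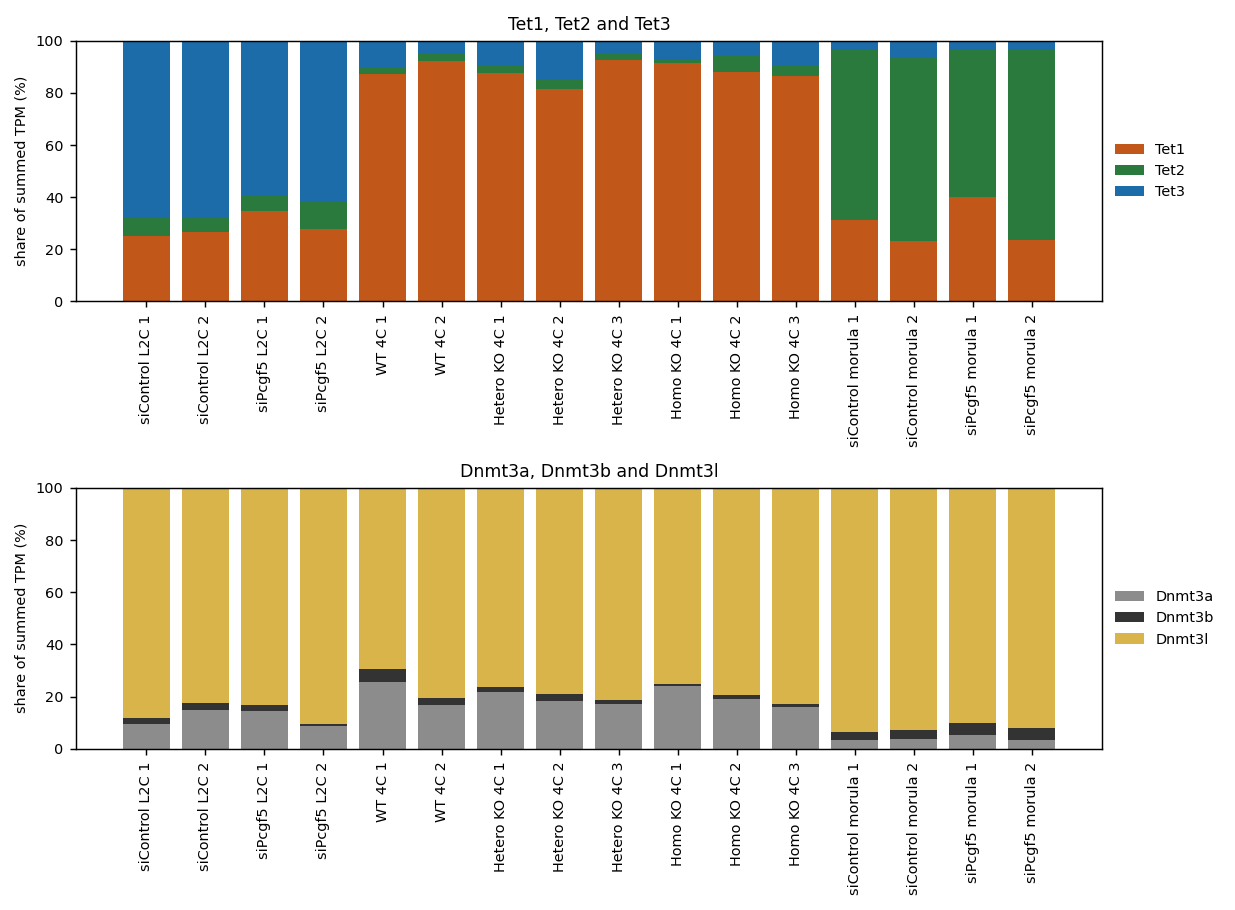
Share in percent of the summed TPM of the TET genes (upper panel) and of the DNMT3 genes (lower panel) in each of 16 libraries (L2C, late 2-cell; 4C, 4-cell; the number is the replicate). Each stage has its own main TET gene, with Tet3 at 59.1% or more, Tet1 at 81.5% or more and Tet2 at 56.6% or more in turn, while Dnmt3l is at 69.5% or more everywhere.

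Tet3, known as the dioxygenase of the zygote, fell from late 2-cell to morula. The siControl libraries held 39.2 and 23.1 CPM at the late 2-cell stage and 3.54 and 5.47 CPM at the morula, a 6.86-fold fall (log2 -2.78 ± 0.385 SE, adjusted p = 0.000148). The siPcgf5 libraries held 22.4 and 23.9 and then 2.63 and 3.31 CPM, a 7.88-fold fall (log2 -2.98 ± 0.390 SE, adjusted p = 0.000104). The high value of 39.2 belongs to the library with Lyz2, and without it the siControl fall was -2.35 and still called. WT 4-cell embryos stood between, at 13.4 and 6.30 CPM, a 3.16-fold fall from siControl late 2-cell (log2 -1.66 ± 0.496 SE, adjusted p = 0.0175). Leaving out the same library ended that call (-1.28, adjusted p = 0.131), as did leaving out WT replicate 2 (-1.23, adjusted p = 0.169). From WT 4-cell to siControl morula the change was not called (log2 -1.13 ± 0.494 SE), and it was called without WT replicate 2 (-1.56, adjusted p = 0.0478).

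Tet1, the main dioxygenase of pluripotent cells, peaked at the 4-cell stage. It stood at 18.7 and 11.9 CPM in siControl late 2-cell embryos, at 144 and 152 CPM in WT 4-cell embryos and at 39.1 and 24.5 CPM in siControl morulae. The rise to the 4-cell stage was 9.69-fold (log2 3.28 ± 0.320 SE, adjusted p = 5.72e-06) and the fall to the morula 4.66-fold (log2 -2.22 ± 0.306 SE, adjusted p = 5.56e-05). The 8 libraries at the 4-cell stage, mutants included, held 85.7 to 152 CPM and overlapped with no library of another stage. The smaller rise from late 2-cell straight to morula (log2 1.06 ± 0.360 SE, adjusted p = 0.0288 in siControl, log2 1.19 ± 0.361 SE in siPcgf5) was the least stable of the stage calls of Tet1. It was 0.04 in siControl and 0.19 in siPcgf5 in TPM, not called in either, was not called with the size factors of DESeq2 in siControl (0.90, adjusted p = 0.0606) or with only the siControl groups fitted (adjusted p = 0.0522). Leaving out late 2-cell replicate 2 (0.73) or morula replicate 1 (0.70) ended it in siControl, and leaving out any of 3 of the 4 siPcgf5 libraries ended it there.

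Tet2, which is prominent in blood and in pluripotent cells, appeared between the 4-cell stage and the morula. Its 4 late 2-cell libraries held 1.69 to 3.52 CPM and its 8 libraries at the 4-cell stage 0.932 to 4.04 CPM. The morula libraries held 52.3 and 47.9 CPM in siControl and 40.5 and 54.6 CPM in siPcgf5. From late 2-cell to morula this was a 20.1-fold rise in siControl (log2 4.33 ± 0.420 SE, adjusted p = 1.37e-05) and a 16.8-fold rise in siPcgf5 (log2 4.07 ± 0.415 SE, adjusted p = 1.96e-05). From WT 4-cell to siControl morula the rise was 18.7-fold (log2 4.23 ± 0.569 SE, adjusted p = 4.54e-05). The rise was called in TPM too, at 1.91 and 1.83 in the siControl and siPcgf5 series and at 1.98 from WT 4-cell, on the log2(TPM + 1) scale, which understates a low starting level. In TPM the mean went from 0.44 to 4.37 in siControl.

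Dppa3 was by far the most abundant member. It stood at 12674 to 28986 TPM over the 16 libraries. The files list no mitochondrially encoded gene, and among the genes listed it was the most abundant in every 4-cell library, and it ranked between 3 and 5 at the late 2-cell stage and between 2 and 4 at the morula. Its siControl libraries held 5244 and 5857 CPM at the late 2-cell stage and 11903 and 11204 CPM at the morula (log2 1.07 ± 0.231 SE, adjusted p = 0.00286). WT 4-cell libraries held 10872 and 13512 CPM, a 2.20-fold rise over siControl late 2-cell (log2 1.14 ± 0.215 SE, adjusted p = 0.000827), which was not called when only those groups were fitted (1.10, adjusted p = 0.0815). In TPM Dppa3 rose to the 4-cell stage (0.79, adjusted p = 0.00126) and fell again to the morula (-0.77, adjusted p = 0.00197). The late 2-cell and morula libraries overlapped in TPM. On the count scale Dppa3 had no called change from WT 4-cell to siControl morula (edgeR log2 -0.08 ± 0.212 SE, adjusted p = 0.831). In the siPcgf5 series its direction from late 2-cell to morula turned with the scale, at 0.75 on the count scale and -0.11 in TPM, the latter not called. The count-scale call in siPcgf5 was lost without late 2-cell replicate 2 (0.52), morula replicate 1 (0.70) or morula replicate 2 (0.80).

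Tdg, the glycosylase of active demethylation, was near or at 0 throughout. In siControl it held 0.458 and 0 CPM at the late 2-cell stage and 0.955 and 2.73 CPM at the morula, and in siPcgf5 0.415 and 1.88 and then 0.887 and 0.731 CPM. At the 4-cell stage it was at 0 in both WT libraries, in Hetero KO replicate 2 and in Homo KO replicate 1. The other mutant libraries held 0.600 and 0.889 CPM in Hetero KO and 2.36 and 3.35 CPM in Homo KO. Tdg was called in none of the 10 comparisons. It was called from late 2-cell to morula in siControl without late 2-cell replicate 1 (adjusted p = 0.0152), when the remaining late 2-cell library is at 0. From WT 4-cell to siControl morula it was called by DESeq2 (adjusted p = 0.0110), without a filter on low counts (0.0337) and with only those groups fitted (0.0198). A near-identical copy of the gene, Gm9855, is counted apart in the same files, at 0 to 7.97 CPM over the 16 libraries and at 1.01 and 2.06 CPM in the WT libraries where Tdg is at 0. How reads were divided between them is not known, so a 0 here is not a measured absence and no fold is given against it.

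**Figure D4:**
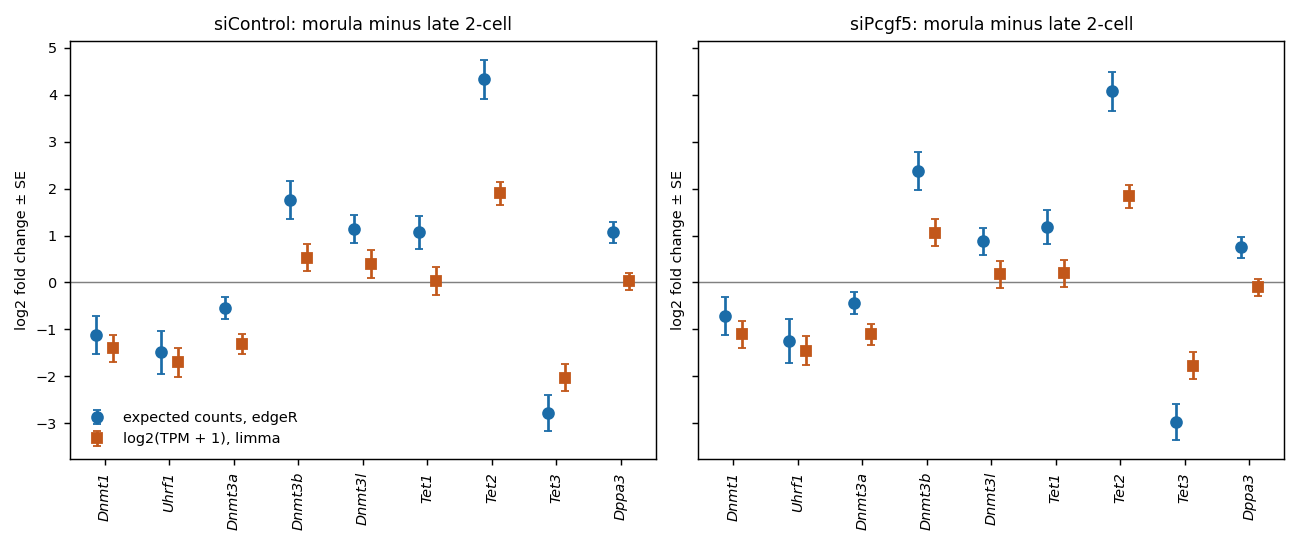
Change from late 2-cell to morula (log2 fold change ± SE) of 9 genes in the siControl series (left) and the siPcgf5 series (right), from expected counts by edgeR (circles) and from log2(TPM + 1) by limma (squares). Tet2 is highest and Tet3 lowest on both scales, whereas Tet1 and Dppa3 lie near 0 in TPM.

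Counted over all 10 members, the step from siControl late 2-cell to WT 4-cell had 2 rises (Tet1 and Dppa3) and 2 falls (Dnmt3l and Tet3), beside 17.5% of 16669 genes higher and 15.2% lower. The step from WT 4-cell to siControl morula had 3 rises (Dnmt3b, Dnmt3l and Tet2) and 2 falls (Dnmt1 and Tet1), beside 14.9% higher and 15.3% lower. The fall of Dnmt1 in that step (log2 -1.47 ± 0.393 SE, adjusted p = 0.00933) was lost without either morula library (-1.54 and -1.35) or WT replicate 1 (-1.39). The rise of Dnmt3b (log2 1.98 ± 0.475 SE) was called on the log2(TPM + 1) scale at 0.89 and not on log2(TPM + 0.1) (1.24, adjusted p = 0.0664). Dnmt3a (-0.53) and Uhrf1 (-1.17) were not called in counts and were called in TPM, at -0.98 and -1.14. Here too the split of all genes moved with the method. For the first step it was 2916 higher and 2526 lower by edgeR, 2773 and 3617 by DESeq2 and 2388 and 5225 by limma on log2(TPM + 1), and for the second 2492 and 2550 by edgeR and 1678 and 3622 by limma. These steps share their WT and siControl libraries with each other and with the comparison of late 2-cell and morula, so they are not independent of it.

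Knockdown of Pcgf5 moved no member past the threshold. At the late 2-cell stage edgeR called 0 of the 10 genes, beside 2 of 16980 genes in all (0.0118%), and 947 genes had an unadjusted p under 0.05. The 9 members other than Tdg had log2 changes from -0.42 (Dnmt3b) to 0.23 (Dppa3), with SEs of 0.229 to 0.451. Dnmt3b and Tet3 alone exceeded their own SE. Tet3 stood at -0.41 ± 0.358 SE, and without the library with Lyz2 the value was 0.05. No member had siPcgf5 and siControl libraries apart from each other, a separation seen in 14.9% of genes upward and 16.3% downward. DESeq2 called 72 genes in this comparison and limma on TPM 14, with 0 members among them.

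At the morula edgeR called 0 of 10 members and 0 of all genes (0%), with 716 genes at an unadjusted p under 0.05, 23 called by DESeq2 and 0 by limma. Without Tdg (-1.20 ± 1.34 SE), log2 changes ran from -0.61 ± 0.371 SE for Tet3 to 0.46 ± 0.407 SE for Dnmt1. Tet3 held 2.63 and 3.31 CPM in siPcgf5 against 3.54 and 5.47 in siControl, and Dnmt1 held 7.03 and 11.0 against 6.97 and 6.06. For 4 members the groups did not overlap, Dnmt1 and Dnmt3a upward and Tet3 and Tdg downward, which compares with 14.4% and 17.0% of all genes. The gaps were narrow, 7.03 against 6.97 CPM for Dnmt1 and 41.1 against 40.6 CPM for Dnmt3a. The difference between the knockdown effects at the 2 stages was called for 0 members and 0 genes (0%), with 842 genes at an unadjusted p under 0.05, 32 called by DESeq2 and 1 by limma, and ran from -0.32 to 0.62 over the members without Tdg.

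The repeat deletion also gave no called member. In Homo KO against WT edgeR called 0 of the 10 members and 0 of 13766 genes (0%), with 1701 genes at an unadjusted p under 0.05. DESeq2 called 333 genes and limma 0, with 0 members among them. Hetero KO against WT had 0 called (0%), 655 at an unadjusted p under 0.05, and 7 by DESeq2. Homo KO against Hetero KO had 0 called (0%), 1131 at an unadjusted p under 0.05, 111 by DESeq2 and 2 by limma. The 3 comparisons share libraries pairwise.

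The member with the smallest p was Tet1, at its developmental peak. It held 144 and 152 CPM in WT, 117, 111 and 148 CPM in Hetero KO, and 105, 85.7 and 86.4 CPM in Homo KO. Every Homo KO library was below every Hetero KO and WT library, and Hetero KO overlapped with WT. The log2 difference was -0.68 ± 0.195 SE in Homo KO against WT (unadjusted p = 0.00485, adjusted p = 0.258), -0.25 ± 0.196 SE in Hetero KO against WT, and -0.43 ± 0.177 SE in Homo KO against Hetero KO (adjusted p = 0.567). Across the alternatives the first of these lay between -0.78 and -0.63, and its adjusted p between 0.0618 (DESeq2) and 0.617.

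Dnmt3b had the largest log2 difference of the members other than Tdg, on few counts. WT libraries held 5.36 and 4.00 CPM, Hetero KO libraries 3.13, 4.16 and 2.87 CPM, and Homo KO libraries 1.13, 2.18 and 1.58 CPM. These are 85 and 68 expected counts in WT and 17, 35 and 25 in Homo KO. The Homo KO libraries were below all others, at log2 -1.51 ± 0.578 SE against WT (adjusted p = 0.339) and -1.05 ± 0.531 SE against Hetero KO (adjusted p = 0.649). The siPcgf5 and siControl libraries of the other stages, at 2.93 CPM or more, were all higher than the Homo KO ones.

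The maintenance genes were lower in Homo KO than in WT as well, without a call, and Uhrf1 overlapped between Homo KO and Hetero KO. Dnmt1 held 18.6 and 17.6 CPM in WT, 17.4, 17.9 and 23.3 CPM in Hetero KO and 11.6, 10.6 and 17.1 CPM in Homo KO (log2 -0.46 ± 0.329 SE against WT and -0.57 ± 0.298 SE against Hetero KO). Uhrf1 held 11.6 and 6.12, then 5.93, 7.71 and 4.17, then 4.99, 3.48 and 5.06 CPM (log2 -0.97 ± 0.476 SE against WT). Its WT libraries differ from each other nearly as much as the groups do, and the value was -0.46 without WT replicate 1. Dnmt3l went the other way, with 19.06 and 27.2 CPM in WT, 30.7, 31.7 and 38.0 CPM in Hetero KO and 33.6, 30.9 and 29.4 CPM in Homo KO (log2 0.53 ± 0.269 SE and 0.44 ± 0.269 SE against WT), so that both mutant groups lay above WT.

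In all, Homo KO and WT libraries were apart for 5 members, Dnmt3l upward and Dnmt1, Dnmt3b, Uhrf1 and Tet1 downward. Over all genes such a gap was seen in 15.1% upward and 15.3% downward. Hetero KO and WT were apart for Dnmt3l alone, beside 9.56% of genes upward and 11.0% downward. Homo KO and Hetero KO were apart downward for Dnmt1, Dnmt3b and Tet1, beside 8.11% upward and 6.55% downward. The member median of the log2 difference was -0.34 in Homo KO against WT (all genes 0.02), 0.06 in Hetero KO against WT (all genes 0.00022) and -0.33 in Homo KO against Hetero KO (all genes -0.01).

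Of the stage markers, the late 2-cell list lay higher in Homo KO by its sum. It summed to 335 and 36.6 CPM in WT, to 192, 132 and 98.3 in Hetero KO and to 384, 380 and 459 in Homo KO. By this sum Homo KO was above both other groups, and WT replicate 2 was the lowest library. Of its single genes, only Zfp352 (103 to 168 CPM against 1.77 to 75.8) and Tcstv3 (57.0 to 130 against 4.06 to 52.6) were apart between Homo KO and WT. The other genes of the list, the Zscan4 genes included, overlapped between Homo KO and WT. Against Hetero KO more genes were apart, all upward in Homo KO. These were Zfp352, Tcstv3, Zscan4c, Zscan4d, Zscan4f (23.9 to 107 CPM against 4.72 to 17.2) and Usp17lc (25.4 to 46.9 against 2.26 to 6.46). Tcstv1 and Tdpoz4 overlapped between Homo KO and Hetero KO. Morula and early lineage markers overlapped between the groups, at 40.1 and 78.9 CPM in WT, 31.1 to 68.8 in Hetero KO and 25.6 to 52.1 in Homo KO. Oocyte markers summed to 1202 and 1217 CPM in WT, 821 to 3384 in Hetero KO and 1279 to 2073 in Homo KO. By this sum Homo KO lay above WT and within the range of Hetero KO. Of single oocyte genes, Oosp1 was apart upward from WT (320 to 380 CPM against 157 to 220) and Mos downward (0.190 to 0.933 against 1.06 to 2.21). The others overlapped between Homo KO and WT, including Omt2b, the largest part of the sum (749 to 1587 against 825 to 862). Blood markers, mostly Hba-a2, summed to 22.5 to 51.0 CPM in WT, 22.8 to 52.6 in Hetero KO and 68.2 to 93.3 in Homo KO, with Hbb-bs, Hbb-bt and Ptprc at 0 in all 3. The cumulus list summed to 1.77 to 2.21, 0.889 to 2.19 and 5.04 to 13.8 CPM. Of this, Tnfaip6 held 0.765 to 1.77, 0.410 to 1.33 and 2.30 to 13.2 CPM. Foxl2 reached 0.942 CPM in WT and Ptx3 2.55 CPM in Homo KO, so Tnfaip6 was not the whole of the sum. Amh and Has2 were at 0 in all 3 groups, and Fshr in WT and Homo KO. The part of these marker lists in the member differences was not tested. Without WT replicate 2, Tet1 stood at -0.67 and Dnmt3b at -1.73 in Homo KO against WT.

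**Figure D5:**
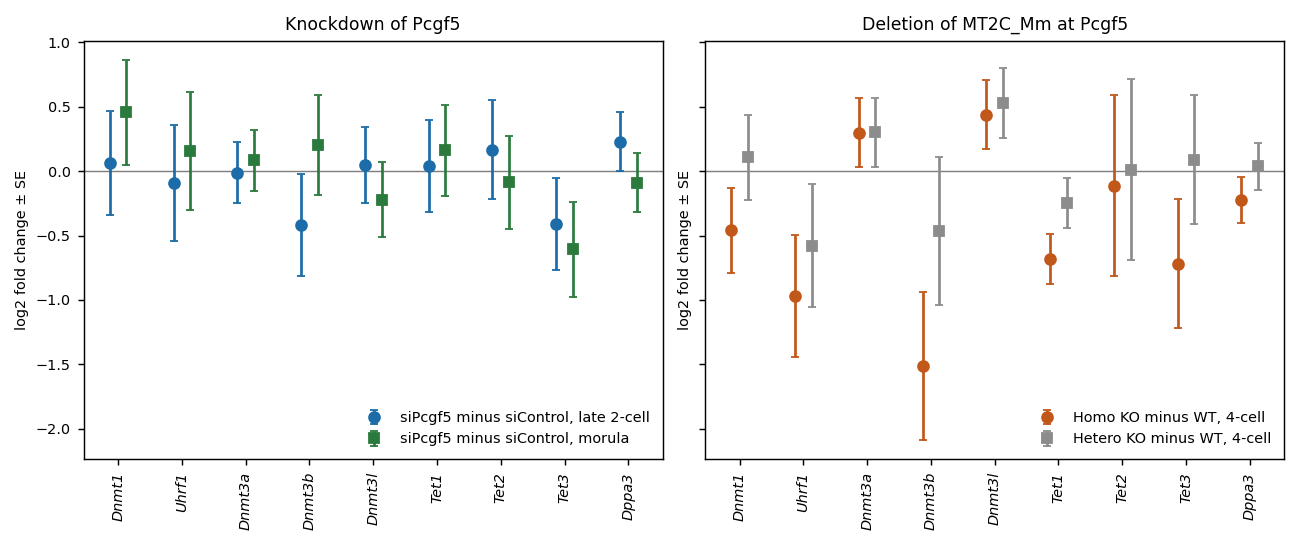
Log2 fold change ± SE of 9 genes after knockdown of Pcgf5 (left; late 2-cell, circles; morula, squares) and in MT2C_Mm mutants at the 4-cell stage (right; Homo KO, circles; Hetero KO, squares), from edgeR. No point passed the adjusted threshold, and the lowest is Dnmt3b in Homo KO at -1.51.

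Genes that work with the members were read as 7 lists of 75 genes, of which 73 were in the files and 72 were tested in the knockdown experiment. From late 2-cell to morula in siControl 30 of them rose and 18 fell, beside 24.9% and 28.1% of all genes. No list gene was called after knockdown (0 of 72 at either stage) or in the mutants (0 of 70). By the group means of TPM, the rises of Usp7, Ahcyl1 and Tex19.1 turned into lower values, and the other called genes of this comparison kept their direction. Usp7 turned in siPcgf5 as well.

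Among 7 maintenance partners, 4 rose and 1 fell. Dmap1, which binds Dnmt1, rose from 7.64 ± 0.246 to 85.85 ± 1.67 CPM (SD over 2 libraries, log2 3.50), Lig1, the ligase of DNA replication, rose by log2 3.60, and Cdca7, a partner of the remodeller Hells, by 3.73.

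Among 10 genes that guide or guard methylation, 4 rose and 1 fell. Trim28, the corepressor of zinc finger proteins, rose by log2 2.84 to 226 ± 39.5 CPM, and Ehmt2, a histone H3 methyltransferase, by 2.43. Zfp57, which protects imprinted regions, fell from 118.7 ± 49.3 to 13.0 ± 3.81 CPM (log2 -3.18). Of 10 readers of methylated CpG, 1 rose and 3 fell, with Mbd3 at 1.32, Mbd5 at -2.89 and Mbd2 at -2.64, and the share that fell is near that of all genes.

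Genes that supply the TET enzymes or repair DNA mostly rose. Of 7 TET partners and genes of cofactor supply, 5 rose and 0 fell, with Idh1 (log2 3.63) and Idh2 (2.97), which make the cofactor oxoglutarate, and the zinc finger gene Sall4 (2.64). Of 12 base excision repair genes, 8 rose and 1 fell. Parp1, a sensor of strand breaks, rose by log2 3.86 and its scaffold partner Xrcc1 by 4.42, while the glycosylase Neil3 fell from 23.0 ± 7.24 to 0.4995 ± 0.341 CPM (log2 -5.50). The medians of these lists were 2.17 and 1.93, against -0.34 over all genes.

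Genes of methyl donor supply were mixed, with 6 of 14 up and 4 down. Bhmt, which makes methionine from betaine, rose from 28.3 ± 0.644 to 6175 ± 677 CPM (log2 7.78). Mthfd1 of the folate cycle rose by 2.87, and Mat2b, a subunit of methionine adenosyltransferase, fell by 1.90 on the log2 scale. Of 12 germline genes known for promoter methylation, 8 fell and 2 rose, with Brdt at -6.14, Dazl at -3.89 and Sycp3 at -3.58, and the list median was -1.53. Messages of this list are also stored in the egg, and oocyte markers fell over the same interval, as given above. The part of stored messages in these falls was not tested.

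The siPcgf5 series gave 28 rises and 20 falls among the 72 list genes, beside 24.5% and 28.2% of all genes. Its leading maintenance partners were Dmap1 (log2 3.81), Lig1 (3.49) and Uhrf2 (-3.16), the relative of Uhrf1, and its leading guides and guards Trim28 (2.67), Zfp57 (-2.99) and Kdm1a (1.66), a histone demethylase. Among readers and TET partners the changes were -2.81 for Mbd5, -3.58 for Mbd2, 1.10 for Mbd3, 4.41 for Idh1, 2.44 for Idh2 and 2.23 for Sall4. Repair was led by Xrcc1 (4.59), Parp1 (3.16) and Apex1 (2.13), the endonuclease of abasic sites. Donor supply was led by Bhmt (7.44), Mthfd1 (2.78) and Mat2b (-1.88), and the germline list by Brdt (-6.13), Sycp3 (-4.37) and Dazl (-3.95).

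The 4-cell stage divided these changes. From siControl late 2-cell to WT 4-cell 28 of the 72 list genes were higher and 11 lower, beside 17.5% and 15.2% of all genes, so the falls were near the background. Cdca7 had already risen by 3.73, with Lig1 at 1.76 and Usp7, a deubiquitinase that binds Dnmt1, at 1.405. Kdm1a rose by 2.17, Setd2, a histone H3 methyltransferase, by 1.25 and Trim28 by 1.21. Of the readers Mbd2 (-3.74) and Mbd5 (-1.76) fell and Mbd3 (1.06) rose. Of 12 repair genes 5 rose and 1 fell, led by Xrcc1 (3.34), Parp1 (2.78) and Lig3 (2.04). Of 14 donor supply genes 6 rose and 3 fell, led by Mthfd1 (2.47) and Mat2a (1.85) with Bhmt, and of 7 TET partners Sall4 (1.72) and Ogdh (1.60) rose. Germline genes differed among themselves, Brdt (-2.81) and Sycp3 (-1.82) falling while Ddx4, an RNA helicase, rose by 1.06.

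From WT 4-cell to siControl morula 8 of the 72 list genes were higher and 18 lower, beside 14.9% and 15.3% of all genes. Lig1 (1.83), Dmap1 (1.57) and Trim28 (1.62) rose further, whereas Usp7 (-0.82), Setd2 (-0.90) and Ehmt1 (-1.29), the partner of Ehmt2, fell. Idh1 and Idh2 rose by 4.63 and 2.35, Parp1 and Apex1 by 1.07 and 0.65 (Apex1 lower by group means of TPM, 251.9 against 254.6), and Neil3 fell by 2.83 on the log2 scale. Mat2b stood at -1.68 and Shmt1 of the folate cycle at -0.999, both called. Of the germline list 8 of 12 fell in this step, with Brdt at -3.34, Sycp1 at -1.67 and Ddx4 going from 188 ± 1.22 to 24.5 ± 3.42 CPM (log2 -2.94). Bhmt rose in both steps, by 4.14 and 3.63.

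Correlation over the 16 libraries, which share stage, experiment and depth, described which genes ran most like each member. The closest for Tet1 was Atxn7 (r = 0.990), followed by Gtpbp10 and Rfc1. For Tet2 it was Lasp1 (0.988), then Ftl1 and Lamtor1. For Tet3 it was Plekha3 (0.952), then March5. For Dppa3 it was Eri1 (0.975), then Atp5s and Mark3. Dnmt3l ran closest to Dynlt1b (0.969), Spcs2 and Mrps14, and Dnmt3b to Rnf5 (0.965), Ppdpf and Hpdl. Patterns of the maintenance genes were less shared. The closest to Dnmt1 was Wdhd1 (0.877), then Chrna10 and Zkscan14, and the closest to Uhrf1 was Edem2 (0.911), then Creld2 and Ppp2r5d. Dnmt3a ran closest to Hira (0.920), Sp140 and Sgol2a, and Tdg had no close match (Camta1 0.694, Mllt4 0.689, Cadm1 0.682). The number of genes with r above 0.9, of 6542 compared, was 301 for Tet2, 201 for Dppa3 and 165 for Tet1, but 1 for Dnmt3a and for Uhrf1 and 0 for Dnmt1.

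Among the members themselves, Dnmt3b and Tet2 ran together (r = 0.89 over 16 libraries), as did Uhrf1 and Tet3 (0.85), Dnmt3l and Tet2 (0.83) and Tet1 and Dppa3 (0.78). Dnmt3a ran against Tet2 (-0.83) and Dnmt3b (-0.77). Dnmt1 and Uhrf1, which act in the same step, had r = 0.41. These values were not split into parts within and between stages.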

How the data were processed

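Each deposited file holds RSEM gene values of 1 library. The expected counts were deposited without normalisation, and the TPM were deposited as RSEM gives them, per the file headers. The submitters' processing notes list mm10, deepTools, STAR 2.7.10, Bowtie2 2.4.5 and RSEM 1.3.3 and give no roles. The deposited abundance-weighted length was used as it stands. Counting by strand is not stated, so reads of a member and of an antisense gene cannot be told apart. The chromatin libraries of the series were not analysed here.

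Expected counts were rounded. The 8 knockdown libraries and the 8 libraries at the 4-cell stage were fitted apart, and comparisons of WT 4-cell with another stage used all 16. Genes passed filterByExpr with a minimum count of 10, were scaled by TMM and tested two-sided with edgeR 4.0.16 (quasi-likelihood, robust) in R 4.3.3, with Benjamini-Hochberg adjustment over all genes and a threshold of 0.05. The edgeR and DESeq2 code was run on simulated counts with planted changes, and no result here rests on that run. CPM use TMM factors over all 16 libraries. Alternatives were DESeq2 1.42.0 (size factors, Wald test), no filter, limma 3.58.1 on log2(TPM + 1) and, between stages, log2(TPM + 0.1), only the groups compared, a replicate block and leaving out each library, where a lone library is assumed to vary like the other groups.

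The members and lists were chosen with earlier results of these data known. Named were all 10 members, Pcgf5, the 3 called genes with the smallest p of each list in each comparison, and the 3 genes with the highest Pearson r to each member (log2 CPM, prior count 2, mean of at least 10 CPM, no predicted genes), of which 1 is not reported here. Lyz2, the single marker genes and the list genes that turned in TPM were named after their values were seen. Sequences and positions are from RefSeq on GRCm38.p6.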

Additional observations from a re-analysis of the deposited data

How the results depend on the processing

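The counts here cover 46 results of a member in a comparison, not every member in every comparison. The calls of Tdg under alternatives, given with that gene, are not among them. Over these 46 results, the alternatives left 230 values of called results called in the same direction and 40 not called, and turned 2. Those 2 are Dppa3 from late 2-cell to morula in siPcgf5, at -0.105 with either pseudocount in TPM. Of the values of uncalled results 225 stayed, 15 became called and 2 turned without 1 library: Tet3 after knockdown at the late 2-cell stage (-0.76 to 0.0505 over the libraries left out, the latter without siControl replicate 1) and Dppa3 from WT 4-cell to siControl morula (-0.18 to 0.11, the latter without WT replicate 2). On the log2(TPM + 1) and log2(TPM + 0.1) scales 5 members were called between stages in siControl in place of 8 (1 higher and 4 lower), and on log2(TPM + 1) 8 in place of 5 from WT 4-cell to siControl morula. Between stages in siPcgf5, 4 members were called in place of 7 whichever of its 4 libraries was left out. The cause was not tested. Without a filter on low counts, 28, 26 and 33 genes were called after knockdown (late 2-cell, morula and the difference between them), 59 in Homo KO against WT and 1 in Hetero KO against WT, in place of 2, 0, 0, 0 and 0. With the replicate number as a block, 8, 7, 4 and 5 members were called in the 4 stage comparisons and 0 in the others, as without it. Same-numbered libraries did not deviate together (correlations of -0.0386 to 0.0068 over 12 pairs in the knockdown and -0.118 to 0.153 over 7 in the knockout), so the numbers were not used to pair. Depth limits Tdg, at 0 to 107 expected counts per library, and Dnmt3b and Tet2 at the 4-cell stage, at 85 or fewer.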
